A study of Homo sapiens and Mus musculus with 21 samples.

Results

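The window described here runs from 90 to 100 Mb on human chromosome 7 (GRCh38), within the bands 7q21 and 7q22. Its members are the genes whose start lies in that stretch in GENCODE release 29 and whose mean level over the 18 tumour libraries was at least 5 TPM (a transcript's share of all transcripts, by length and library total). There were 48 members among 193 genes listed in the window, and 10838 genes of the whole table reached the same level. Of the others in the window, 40 were listed at 0 in every library, 82 had a mean above 0 and under 1 TPM, and 23 had a mean of 1 to 5 TPM. The members comprised 46 protein-coding genes, the olfactory receptor pseudogene OR7E38P and RN7SL7P, a copy of the 7SL RNA gene. The members were thus chosen by position and by their mean TPM, but the window was proposed with earlier comparisons of these libraries known, so its group differences are given as a description.

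RNA came from frozen caecum of immunodeficient NSG mice, taken on day 28 after injection of human colorectal adenocarcinoma cells into the caecum wall. SW480 and SW620 are established lines. SW480 libraries carried lentiviral dnLEF1, a dominant negative LEF1, or a lentiviral mock (Mock). SW620 libraries carried dnLEF1, Mock, LRP6KO (CRISPR against the Wnt co-receptor LRP6, puromycin selection and sorting for low LRP6 protein) or Cas9 (the mock CRISPR control, transfected and sorted). Each of the 6 groups had 3 libraries. Every group had thus been through a lentiviral or a transfection step, Mock and Cas9 being controls of different steps. The sources do not say whether a line was a pool or a clone, nor whether each library came from its own mouse, so the p-values measure the spread between these libraries, which may be technical.

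The stretch is one of mixed function. It holds housekeeping genes of basic machinery (the actin-branching subunits ARPC1A and ARPC1B, the ATP synthase subunit ATP5MF, the proteasome subunit SEM1, the splicing factor BUD31 and the polyadenylation factor CPSF4), the G1 cyclin-dependent kinase CDK6, and an imprinted cluster around PEG10 and SGCE, which in normal tissue are read from the paternal copy. Members share an address and not a pathway, so several genes are set beside their functional partners elsewhere in the genome.

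LEF1 was higher in each of the 3 SW480 dnLEF1 libraries (99.4, 50 and 47.2 TPM) than in the SW480 Mock libraries (14.8, 13.3 and 5.09 TPM). In SW620 it was 18.3, 22.5 and 24.0 TPM with dnLEF1 and 0.30, 0.80 and 0.59 TPM with Mock, and both orders match the label of an added LEF1 form. LRP6 transcript was 21.1, 18.8 and 17.5 TPM in LRP6KO and 10.9, 17.8 and 17.5 TPM in Cas9, which does not test that label, since the cells were sorted on protein. The 8 epithelial markers checked (EPCAM, KRT8 and others) summed to 8750 to 21300 TPM per library. Sums of marker lists for other cell types were far lower, at 5.96 to 19.2 TPM for fibroblasts, 0.72 to 8.25 for endothelium, 8.75 to 49.1 for leukocytes and 14.8 to 85.8 for smooth muscle. Genes above 0 numbered 24665 to 34709 per library, and SW480 Mock replicate 2 (34709) and SW620 LRP6KO replicate 1 (34114) stood apart from the rest. TPM keep no read depth, so the counting precision of a value is unknown, and in bulk RNA fewer tumour cells of a kind and less RNA per cell cannot be told apart.

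In SW620 tumours the members lay highest in Mock. The median over the 48 members of log2(TPM + 1), the level scale used throughout, was 4.40, 4.25 and 4.41 in the 3 Mock libraries. It was 3.88, 3.95 and 3.79 with dnLEF1, 3.98, 4.02 and 4.16 with Cas9, and 4.13, 3.99 and 3.98 with LRP6KO. Every Mock library was thus above all 9 other SW620 libraries. As group means these were 4.35 ± 0.088 in Mock, 3.87 ± 0.081 with dnLEF1, 4.05 ± 0.095 with Cas9 and 4.03 ± 0.087 with LRP6KO (SD, n = 3 each). SW480 libraries were at 4.44 ± 0.158 with Mock and 4.60 ± 0.106 with dnLEF1 (SD, n = 3 each), and their ranges overlapped. Genes not on chromosome 7 did not show that order: their medians were 4.30, 4.25 and 4.31 in SW620 Mock, 4.24 to 4.36 with Cas9 and 4.22 to 4.46 with LRP6KO, which overlapped, and 4.14 to 4.19 with dnLEF1. The order was not particular to the window on its own chromosome. Among genes up to 60 Mb on chromosome 7 the Mock medians were 4.71 to 4.77 and the 9 others at most 4.70, and past 60 Mb outside the window they were 4.18 to 4.33 and at most 4.16.

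**Figure D1:**
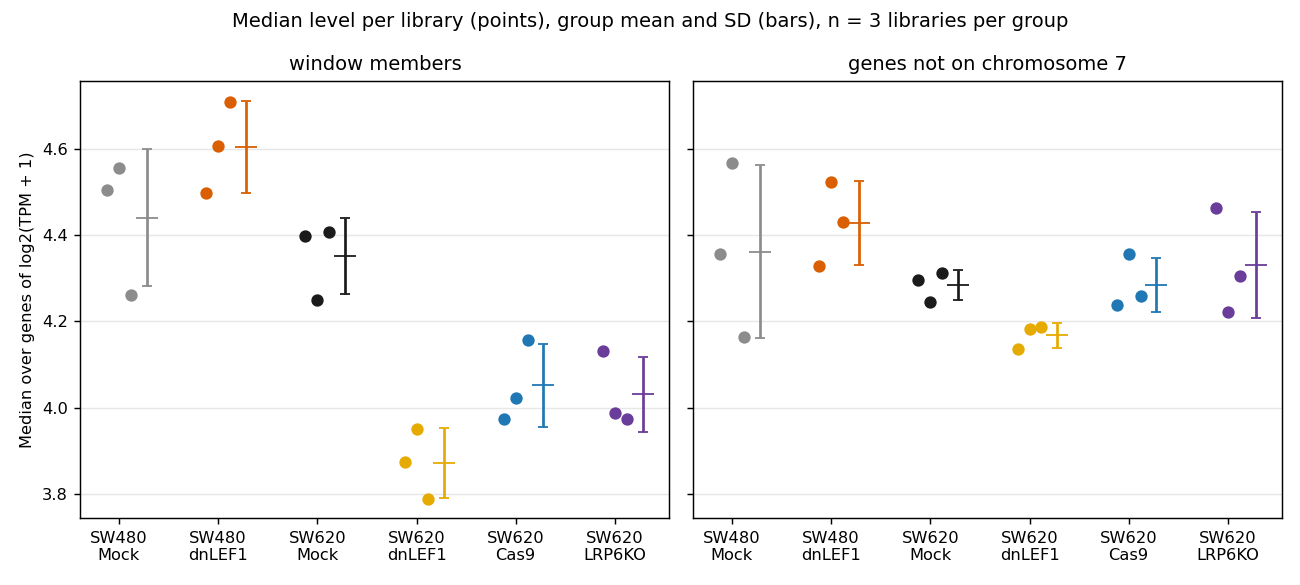
Median log2(TPM + 1) per library (points, y axis) by group (x axis) for the 48 window members (left) and the 10281 genes of the same level outside chromosome 7 (right), with group mean and SD of 3 libraries. In the left panel the 3 SW620 Mock points lie between 4.25 and 4.41 and the 9 other SW620 points between 3.79 and 4.16.

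Gene by gene, dnLEF1 lay below Mock in 44 of the 48 members, Cas9 in 43 and LRP6KO in 39. The median differences were -0.42, -0.36 and -0.30 on the log2 scale, against -0.12, -0.04 and 0.01 over the 10838 genes of that level. These 3 comparisons share the Mock libraries and are not independent. Mock had the highest of the 4 SW620 group means for 36 of 48 members, and for 33.7% of the 10838 genes. Leaving out LRP6KO replicate 1, the SW620 library that stood apart, gave 38 of 48 against 37.0%. All 3 dnLEF1 libraries were below all 3 Mock libraries for 23 members (20.8% of the 10838 genes), all 3 Cas9 libraries for 24 (10.9%) and all 3 LRP6KO libraries for 19 (6.42%). Under median-ratio scaling, which brings the median dnLEF1 difference of all tested genes from -0.12 to -0.001, the first of these counts was 14 (8.86%) and the members' median difference was -0.27.

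No member passed the test across all genes in these 3 comparisons (limma on log2(TPM + 1), Benjamini-Hochberg adjusted p under 0.05 over 22981 genes). The table as a whole gave 38 genes for dnLEF1 (0.165%), 0 for Cas9 (0.0%) and 1 for LRP6KO (0.00435%). At an unadjusted p under 0.05 the members numbered 18 for dnLEF1 (17 lower), 15 for Cas9 (15 lower) and 14 for LRP6KO (14 lower), where the shares of the whole table were 8.10%, 5.02% and 4.39%. These shares are over all 22981 tested genes, which include genes under the members' level. None was computed over the 10838 genes, so the members' counts have no share of like level beside them. With only the groups of the comparison in the fit, 4 members were called lower for dnLEF1, where the table gave 120 genes called either way, and 1 for Cas9, where it gave 8. The filter on low values was applied anew in those fits, and the share of genes called is not given. These member counts are thus not read as a result about the members. The median SE of a member's difference was 0.23.

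**Figure D2:**
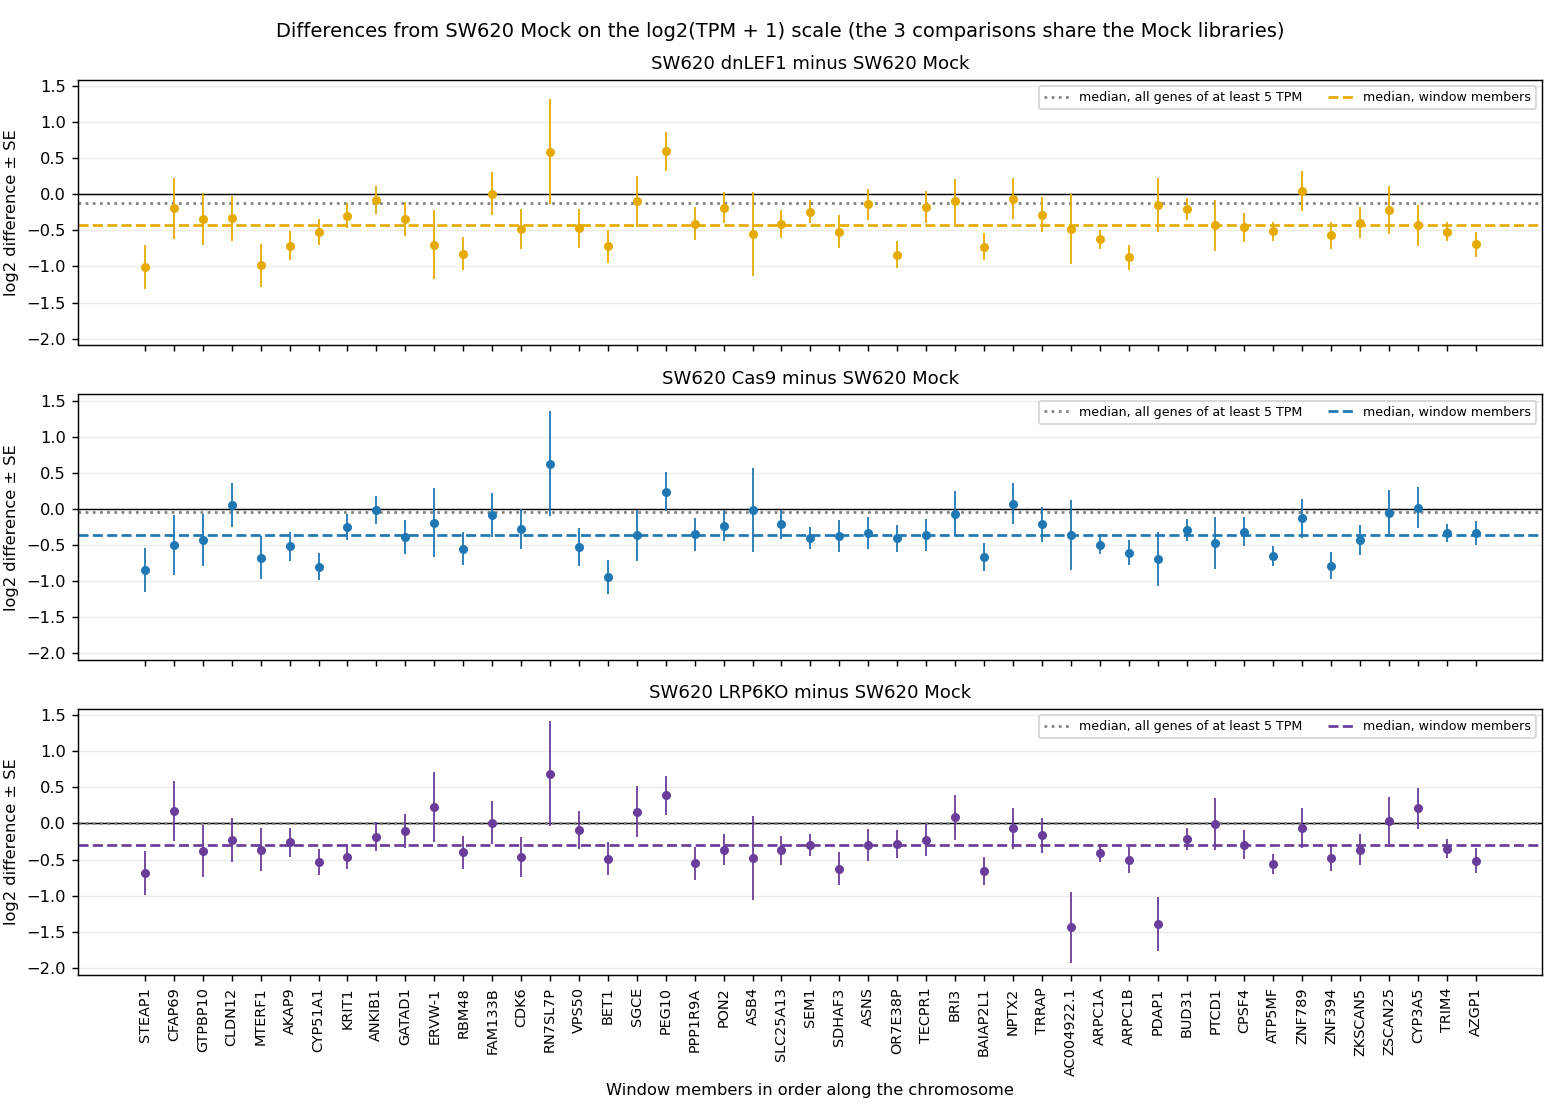
Difference from SW620 Mock with its standard error for 47 of the 48 members, in chromosomal order, for dnLEF1, Cas9 and LRP6KO; the dashed line is the median of the members (-0.42, -0.36 and -0.30) and the dotted line that of 10838 genes. Most points lie below 0 in each panel, and PEG10 and RN7SL7P lie above it in all 3.

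For 14 members all 3 Mock libraries exceeded the other 9 SW620 libraries (2.30% of the 10838 genes), and for 0 members were they all below (0.913%). These were STEAP1, AKAP9, CYP51A1, CDK6, BET1, BAIAP2L1, ARPC1A, ARPC1B, CPSF4, ATP5MF, ZNF394, ZKSCAN5, TRIM4 and AZGP1, spread from the first to the last member of the window. Differences given below for them are descriptions of genes that did not pass the test.

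Among the cytoskeletal genes, ARPC1A (chr7:99325910-99366262) and its paralogue ARPC1B (chr7:99374249-99394816) encode alternative subunits of the ARP2/3 complex, which starts actin branches. ARPC1A stood at 93.4, 95.4 and 99.5 TPM in Mock, 53.0, 63.6 and 70.4 TPM with dnLEF1, 62.9, 71.4 and 69.2 TPM with Cas9, and 75.3, 69.7 and 72.3 TPM with LRP6KO. Its difference from Mock was -0.63 ± 0.13 (SE; limma adjusted p = 0.0708) with dnLEF1, the smallest p of any member in that comparison. ARPC1B stood at 262, 278 and 267 TPM in Mock, 128, 155 and 157 TPM with dnLEF1, 142, 211 and 182 TPM with Cas9, and 196, 194 and 177 TPM with LRP6KO. The dnLEF1 difference was -0.88 ± 0.18 (SE; limma adjusted p = 0.0708). The 7 other ARP2/3 genes tested, all outside the window, had median differences of -0.18 with dnLEF1, -0.10 with Cas9 and -0.03 with LRP6KO. BAIAP2L1, an I-BAR protein that links membranes to actin, lay at 26.6, 20.3 and 21.7 TPM in Mock and at 9.82 to 17.5 TPM in the other 9 libraries.

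ATP5MF (chr7:99448475-99466331), a membrane subunit of the mitochondrial ATP synthase, was the most abundant member at a mean of 1150 TPM. It stood at 1297, 1299 and 1292 TPM in Mock, 964, 923 and 838 TPM with dnLEF1, 774, 836 and 870.1 TPM with Cas9, and 829, 864 and 950.1 TPM with LRP6KO. The 3 Mock libraries lay close together and above all of the other 9. Its difference of -0.65 ± 0.14 (SE; limma adjusted p = 0.339) had the smallest p of any member for Cas9, as did -0.56 ± 0.14 (SE; limma adjusted p = 0.567) for LRP6KO. The 16 other ATP synthase genes had medians of -0.03, -0.09 and 0.00 in the dnLEF1, Cas9 and LRP6KO comparisons. The mitochondrial carrier SLC25A13, the complex II assembly factor SDHAF3 and the mitochondrial transcription factor MTERF1 differed from Mock by -0.41, -0.52 and -0.98 with dnLEF1, and MTERF1 libraries did not overlap there.

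Of the genes for RNA and protein turnover, SEM1, a small subunit of the 19S proteasome cap, lay at 331, 316 and 259 TPM in Mock and at 213 to 277 TPM in the other 9 SW620 libraries, which overlap. The 17 other 19S genes listed had medians of -0.22 with dnLEF1, -0.15 with Cas9 and -0.08 with LRP6KO. BUD31, a spliceosome component, lay at 276, 269.7 and 311 TPM in Mock and at 214 to 270.2 TPM elsewhere in SW620. CPSF4, which binds the polyadenylation signal, lay at 20.96, 22.9 and 22.7 TPM in Mock and no higher than 20.8 TPM elsewhere in SW620. For TRIM4, a RING-type ubiquitin ligase, the Mock values were 21.9, 22.6 and 24.2 TPM and the others 15.3 to 19.1 TPM. CYP51A1, the lanosterol demethylase of cholesterol synthesis, lay at 34.6, 29.5 and 35.4 TPM in Mock, against 17.6 to 19.7 TPM with Cas9, 18.97 to 27.0 TPM with dnLEF1 and 18.5 to 26.6 TPM with LRP6KO. The 17 other cholesterol synthesis genes also lay below Mock at the median, by -0.28 with dnLEF1, -0.23 with Cas9 and -0.15 with LRP6KO, and 0 of them were called.

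STEAP1 (chr7:90154375-90164829), a metalloreductase-family membrane protein and the first member, stood at 96.1, 93.6 and 89.1 TPM in Mock, 36.8, 54.1 and 47.9 TPM with dnLEF1, 50.3, 45.2 and 58.55 TPM with Cas9, and 51.6, 49.7 and 74.3 TPM with LRP6KO. CDK6 was at 43.2, 38.8 and 40.7 TPM in Mock and at 25.55 to 37.3 TPM in the other 9. The 11 other G1 kinase, cyclin and inhibitor genes listed had medians of 0.05, -0.04 and 0.02.

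Not all members followed the median. PEG10, a retrotransposon-derived imprinted gene, stood at 19.2, 16.7 and 21.4 TPM in Mock and at 40.3, 24.8 and 24.7 TPM with dnLEF1, the 1 member with all 3 dnLEF1 libraries above Mock (5.35% of the 10838 genes), at 0.59 ± 0.27 (SE; limma adjusted p = 0.601). PDAP1, a casein kinase substrate, stood at 178, 226 and 172 TPM in Mock, 56.4, 93.9 and 70.9 TPM with LRP6KO and 83.5, 181 and 106 TPM with Cas9. Its LRP6KO difference of -1.39 ± 0.37 (SE; limma adjusted p = 0.700) and that of AC004922.1 (-1.44 ± 0.49, SE; limma adjusted p = 0.944) were the lowest in that comparison. AC004922.1 spans ARPC1A and most of ARPC1B, and both AC004922.1 and ARPC1B overlap PDAP1 on the other strand. Since strand use is not stated for the counting, values of overlapping genes are uncertain. This holds for these 4, for PDAP1 with BUD31, BUD31 with PTCD1, PTCD1 with CPSF4 and ATP5MF, and CPSF4 with ATP5MF. It also holds for GTPBP10 with CLDN12, SGCE with PEG10, BRI3 with BAIAP2L1, and ZNF789 with ZNF394. Among the 32 members that overlap no other member, Mock was the highest SW620 group for 25. The share over the 10838 genes, overlapping ones included, was 33.7%, and none was computed for genes without overlap. RN7SL7P, OR7E38P and CYP3A5 have close copies elsewhere, between which reads could be split.

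The differences did not stop at the edges of the window. The nearest genes of that level before it are SRI (mean 236 TPM) and AC003991.1 (145 TPM), which differed from SW620 Mock by -0.74 and -0.62 with dnLEF1. The nearest after it, ZKSCAN1 (31.9 TPM) and ZSCAN21 (11.8 TPM), differed by -0.69 and -0.37. In the 330 genes of chromosome 7 that start past 60 Mb outside the window, the median differences from Mock were -0.34 with dnLEF1, -0.24 with Cas9 and -0.19 with LRP6KO. In the 179 genes up to 60 Mb they were -0.07, -0.07 and -0.18. Of 277 windows of 10 Mb in the genome with at least 10 genes of that level, the window from 90 to 100 Mb ranked 4 from the lowest for dnLEF1, 3 for Cas9 and 5 for LRP6KO. The window from 110 to 120 Mb, with 11 genes, was lower in all 3 (-0.55, -0.44 and -0.52), and each of its genes lay below 0 in each comparison.

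**Figure D3:**
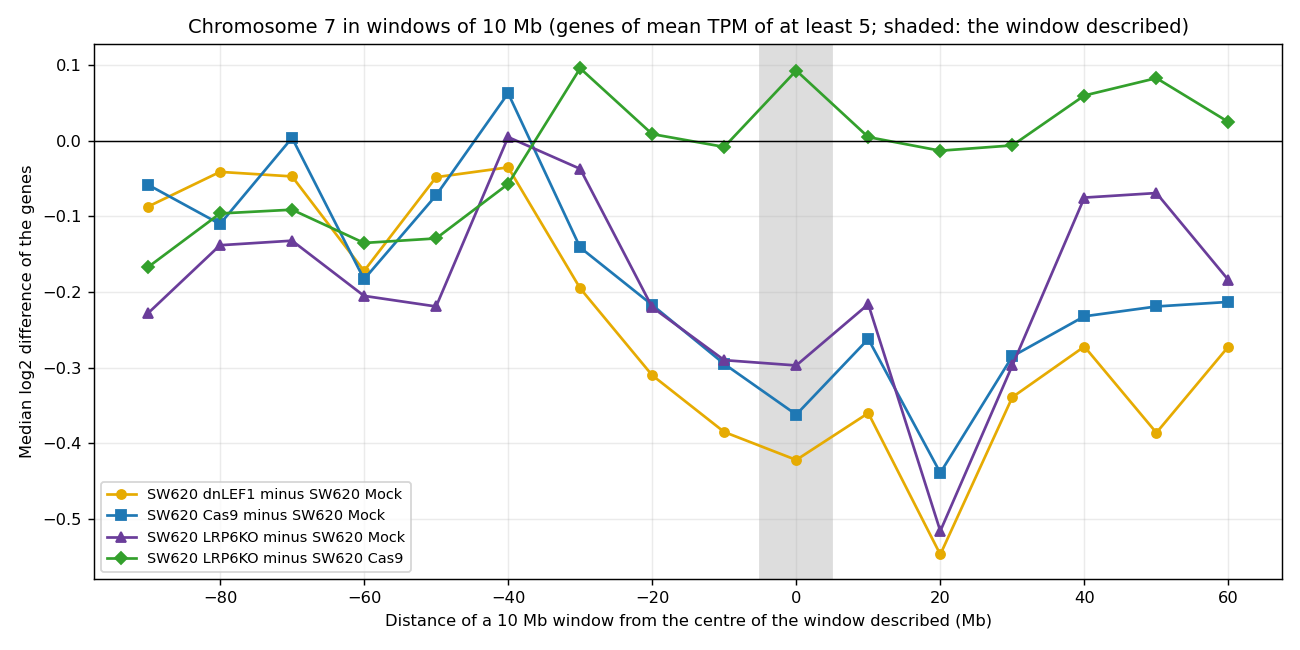
Median log2 difference of the genes in each 10 Mb window of chromosome 7 (y axis) by distance from the centre of the window described, shaded (x axis, Mb), for 4 comparisons in SW620. The comparisons with Mock lie at -0.42, -0.36 and -0.30 in the shaded window, while LRP6KO against Cas9 lies at 0.09.

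Within the window the difference was not confined to one segment. In pieces of 2 Mb, the dnLEF1 medians were -0.53 (6 genes), -0.46 (12), -0.19 (5), -0.41 (5) and -0.43 (20) from the low to the high coordinate. The piece from 94 to 96 Mb, with PEG10 and SGCE, was the shallowest for dnLEF1 and for Cas9 (-0.23) but the deepest for LRP6KO (-0.365), where that from 92 to 94 Mb was the shallowest (-0.15). The 23 genes of mean 1 to 5 TPM had medians of -0.38 with dnLEF1, -0.16 with Cas9 and -0.01 with LRP6KO. Partner genes of the members, 159 non-members of the same complexes, pathways and clusters, had medians of -0.16, -0.07 and -0.04, and 0 of them passed the test. Not all of them lie elsewhere in the genome. Some are in the window, among them CASD1, CDK14 and DLX6. Others lie just past its edge, where the 8 genes listed had a median of -0.42 with dnLEF1. The mitochondrial genome took 7.21 to 8.41% of TPM in the SW620 Mock libraries and 9.13 to 13.8% in the other SW620 libraries, and the summed epithelial markers were 15200 to 17100 TPM in Mock and 8750 to 14400 TPM in the others. Summed fibroblast markers (7 of 7 found) were 16.5 to 18.2 TPM in Mock, 6.71 to 10.3 with dnLEF1, 9.85 to 14.8 with Cas9 and 12.2 to 19.2 with LRP6KO. Smooth muscle markers (4 of 4) were 36.0 to 43.8 TPM in Mock, 14.8 to 22.1 with dnLEF1, 30.7 to 46.2 with Cas9 and 33.1 to 67.6 with LRP6KO, so both sums were lower with dnLEF1 than in Mock without overlap. The part of these shares and sums in the result was not tested.

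LRP6KO set against its own control, Cas9, showed no such shift. The median difference of the members was 0.09, with 34 above 0, beside 0.05 over the 10838 genes. No gene of the table passed the test (0.0%), and 1 member had an unadjusted p under 0.05, AC004922.1, at -1.08 ± 0.49 (SE; limma adjusted p = 1.00). Among members above 0 the smallest p was that of BET1 (0.46 ± 0.23). In the shares of the whole table, 3.33% had an unadjusted p under 0.05. The other SW620 comparisons without Mock were described and not tested. For dnLEF1 minus Cas9 the members' median was -0.05, with 27 of 48 below 0, beside -0.09 over the 10838 genes. The window ranked 194 of 277 from the lowest there. For LRP6KO minus dnLEF1 the members' median was 0.10, beside 0.13 over the 10838 genes. Of the Wnt, BMP and TGF-beta genes listed for the window, 4 were tested. These were the receptor FZD1, the kinase CDK14, the ubiquitin ligase SMURF1 and the homeobox gene DLX6, all under 5 TPM and not members. None of these 4 was called in any of the 7 comparisons.

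The lines differed at far more members. Between the Mock groups, 22 of the 48 members passed the test (45.8%; 23.9% of all tested genes and 34.3% of the 10838). Of these, 7 were higher in SW620 (14.6% of members; 19.1% of the 10838 genes) and 15 lower (31.2%; 15.1%). PEG10, SGCE, ASB4 and NPTX2 had a mean under 5 TPM in 1 line and became members only through the line where they are high, so they had to differ: their line differences are descriptions, and the counts, which hold them, support nothing. The same limit holds for CFAP69, RN7SL7P, PPP1R9A and ZKSCAN5, which were not called but enter the median and counts given next. The members' median was -0.48 and that of the 10838 genes 0.01. The members' median was -0.35 without SW480 Mock replicate 2, the library that stood apart in number of genes above 0. Of 277 windows of 10 Mb, the window ranked 11 from the lowest here. Its neighbours from 80 to 90 Mb and from 100 to 110 Mb had medians of -0.45 and -0.69. In the 330 genes of chromosome 7 past 60 Mb outside the window the median was -0.16. All 12 SW620 libraries were below all 6 SW480 libraries for 13 members (11.6% of the 10838 genes) and above them for 4 (11.0%).

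**Figure D4:**
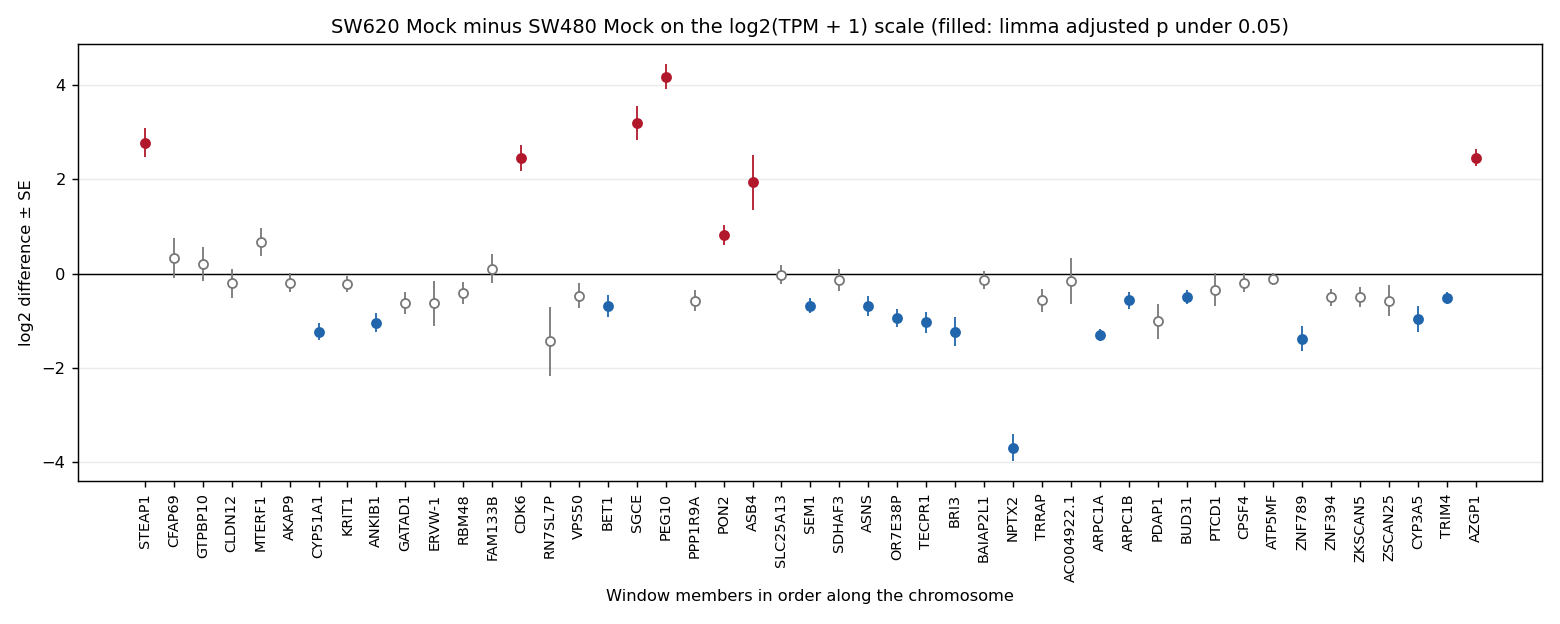
SW620 Mock minus SW480 Mock with its standard error for 47 of the 48 members in chromosomal order (y axis, log2 scale); filled points passed limma at an adjusted p under 0.05. PEG10 (4.18) is the highest point and NPTX2 (-3.68) the lowest.

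Genes of the imprinted cluster mostly lay higher in SW620, with the limit just given for PEG10, SGCE, ASB4 and PPP1R9A. PEG10 (chr7:94656325-94669695) was listed at 0, 0.34 and 0 TPM in SW480 Mock and at 19.2, 16.7 and 21.4 TPM in SW620 Mock, a difference of 4.18 ± 0.27 (SE), which the added 1 TPM makes smaller than the ratio of the levels. SGCE (chr7:94524204-94656572), encoding epsilon-sarcoglycan and read from the other strand with its start inside the span of PEG10, stood at 1.60, 7.38 and 1.57 TPM in SW480 Mock and 37.6, 26.5 and 39.4 TPM in SW620 Mock (3.19 ± 0.35). ASB4, a SOCS-box protein, stood at 15.9, 2.91 and 0.80 against 24.4, 13.4 and 17.5 TPM (1.94 ± 0.58), and its libraries overlapped. It was lost without SW480 Mock replicate 2 or 3 or SW620 Mock replicate 1 or 3. PON2, a lactonase of the paraoxonase family, stood at 115, 91.7 and 69.9 against 191, 139 and 157 TPM (0.83 ± 0.21), and it was lost without SW620 Mock replicate 1. Of 7 tested genes listed for that cluster, 5 were higher in SW620, the fifth being PON3 (1.16 ± 0.40), which is under 5 TPM, and 0 lower. PPP1R9A and CASD1 were not called, at -0.57 and -0.05.

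The other members higher in SW620 are STEAP1 and AZGP1, the first and last of the window, and CDK6 between them. STEAP1 stood at 22.35, 10.5 and 8.47 TPM in SW480 Mock against 96.1, 93.6 and 89.1 TPM in SW620 Mock (2.78 ± 0.30; limma adjusted p = 4.2e-06). CDK6 (chr7:92604921-92836594) stood at 9.65, 5.48 and 5.33 against 43.2, 38.8 and 40.7 TPM (2.46 ± 0.28). AZGP1 (chr7:99966720-99976157), the last member, encodes zinc-alpha-2-glycoprotein, a secreted protein with an MHC class I-like fold. It stood at 15.9, 17.5 and 14.1 against 83.55, 97.6 and 93.9 TPM (2.46 ± 0.17; limma adjusted p = 2.79e-08). Groups did not overlap for any of these.

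NPTX2 (chr7:98617297-98629868), which encodes the secreted neuronal pentraxin 2, was the member with the largest difference in the other direction. It stood at 8.41, 15.5 and 18.6 TPM in SW480 Mock and 0.08, 0.23 and 0.08 TPM in SW620 Mock (-3.68 ± 0.28), and no SW620 library of any group exceeded 0.41 TPM. Its mean over the SW620 libraries was 0.121 TPM and over the SW480 libraries 29.9 TPM, and it passed the level minimum only through SW480.

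The remaining 14 lower members had mixed roles. ARPC1A stood at 260.4, 238 and 214 TPM in SW480 Mock and at 93.4, 95.4 and 99.5 TPM in SW620 Mock (-1.29 ± 0.13; limma adjusted p = 1.2e-06). ARPC1B stood at 424, 403 and 369 against 262, 278 and 267 TPM (-0.56 ± 0.18). Of the 7 ARP2/3 genes elsewhere, 2 were called higher in SW620 and 0 lower, and their median was 0.16. CYP51A1 stood at 90.55, 86.9 and 62.1 against 34.6, 29.5 and 35.4 TPM (-1.23 ± 0.18). The zinc finger gene ZNF789 stood at 33.3, 43.5 and 35.2 against 15.8, 13.4 and 12.2 TPM (-1.37 ± 0.28), and BRI3, a small lysosomal membrane protein, at 23.2, 25.9 and 31.8 against 10.03, 9.59 and 13.2 TPM (-1.23 ± 0.31). In these genes the lines separated without overlap.

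Smaller differences came next. ANKIB1, a RING-between-RING ubiquitin ligase, stood at 13.9, 20.8 and 17.0 against 7.07, 7.86 and 8.53 TPM (-1.03 ± 0.20), and TECPR1, a tethering factor of autophagy, at 19.5, 18 and 19.5 against 7.89, 7.65 and 11.25 TPM (-1.03 ± 0.22). The drug-metabolising cytochrome CYP3A5 (-0.96 ± 0.28) and the pseudogene OR7E38P (-0.94 ± 0.19) followed, the former lost without SW480 Mock replicate 2 or SW620 Mock replicate 1. SEM1 stood at 538, 421 and 490.3 against 331, 316 and 259 TPM (-0.68 ± 0.15), and BUD31 at 458, 367 and 382 against 276, 269.7 and 311 TPM (-0.49 ± 0.15). TRIM4 (-0.51 ± 0.13), the asparagine synthetase ASNS (-0.68 ± 0.22) and the vesicle SNARE BET1 (-0.68 ± 0.23) complete the list. ASNS, BET1, BUD31 and ARPC1B had adjusted p values of 0.0266 to 0.0445 and were each lost without at least 3 of the 6 libraries in turn. Of the 8 genes listed just past the upper edge, 5 were called lower in SW620 and 0 higher, with a median of -0.83.

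In SW480, 3 members were higher with dnLEF1 and 0 lower, against 2.23% of all tested genes called (1.35% higher and 0.875% lower). Genes under the members' level are in these shares, and those of the 10838 genes are not given here. The members' median was 0.07 and that of the 10838 genes 0.06. AZGP1 stood at 47.98, 86.4 and 62.7 TPM with dnLEF1 and 15.9, 17.5 and 14.1 TPM with Mock, a difference of 1.95 ± 0.17 (SE; limma adjusted p = 1.78e-05). NPTX2 stood at 31.9, 60.4 and 44.5 TPM against 8.41, 15.5 and 18.6 TPM (1.64 ± 0.28; limma adjusted p = 0.00608). Its mean was 45.6 TPM with dnLEF1, 14.2 TPM in SW480 Mock and at most 0.193 TPM in the SW620 groups. NPTX2 thus reached the level minimum through the dnLEF1 group, where it is high. Its difference is a description, and the count of 3, which holds it, supports nothing. PON2 stood at 123, 249 and 145.5 TPM against 115, 91.7 and 69.9 TPM (0.86 ± 0.21; limma adjusted p = 0.0464). Groups did not overlap for any of the 3. AZGP1 passed under each alternative run (highest adjusted p 0.0431). NPTX2 did not pass with only SW480 libraries in the fit or with a pseudocount of 0.1, and PON2 was lost under 9 of 11 alternatives, among them each removal of dnLEF1 replicate 2 or 3 and of Mock replicate 2 or 3.

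**Figure D5:**
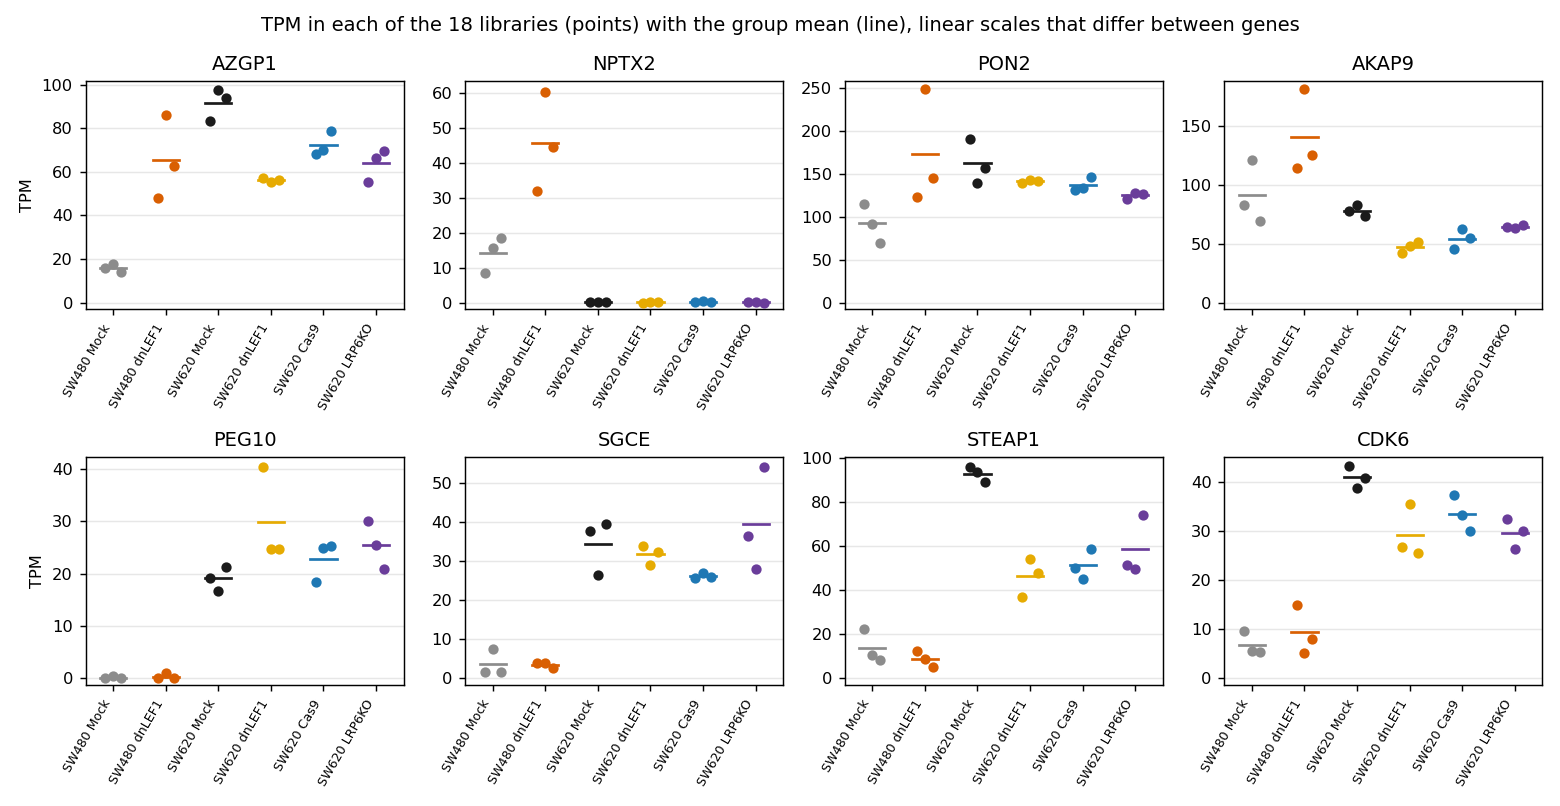
TPM in each of the 18 libraries (points) with group means (lines) for 8 members, on linear scales that differ between genes; groups are on the x axis. AZGP1 lies at 14.1 to 17.5 TPM in SW480 Mock and at 47.98 to 97.6 TPM in all other groups, and NPTX2 does not exceed 0.41 TPM in SW620.

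The dnLEF1 difference went the other way in SW620. AZGP1 stood there at 57.0, 55.5 and 56.3 TPM with dnLEF1 and 83.55, 97.6 and 93.9 TPM with Mock (-0.69 ± 0.17; limma adjusted p = 0.182), and the difference between the lines' dnLEF1 changes was -2.64 ± 0.24 (SE; limma adjusted p = 4.79e-05). AKAP9 (chr7:91940867-92110673), a scaffold that anchors protein kinase A at the Golgi and the centrosome, stood at 115, 182 and 125 TPM with dnLEF1 and 83.1, 122 and 69.2 TPM with Mock in SW480. In SW620 it stood at 41.8, 48.3 and 51.4 TPM with dnLEF1 and 77.5, 82.6 and 73.3 TPM with Mock. Neither change was called by itself (0.63 ± 0.20 and -0.71 ± 0.20; limma adjusted p = 0.126 and 0.25), while their difference of -1.34 ± 0.28 was (SE; limma adjusted p = 0.0365). That call was lost without any of 10 libraries in turn, which are all but SW480 dnLEF1 replicate 1 and SW480 Mock replicate 2. These were the 2 members called for this difference (0.718% of all tested genes), both lower (0.54%). Here too the shares include genes under the members' level. Over all members the median of this difference was -0.48 (42 of 48 below 0), against -0.19 over the 10838 genes, and median-ratio scaling made the members' median -0.22. That was not particular to the window. In the 330 genes of chromosome 7 past 60 Mb outside it, the median was -0.51 (85.2% below 0). Of 277 windows of 10 Mb, the window ranked 11 from the lowest. SW620 Mock enters both this comparison and those described above.

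The 4 members called for dnLEF1 or its difference between lines are the ones for which the sequence at the start of the gene bears on the design, since LEF1 and its TCF relatives bind DNA. RefSeq promoters (GRCh38.p14), 250 bases before to 50 after a start, were found for 36 of the 48 members, taking the entry nearest to the GENCODE start. They were searched on both strands for CTTTGAT and CTTTGAA, spellings of the TCF/LEF core motif that differ in the last letter, so no stretch counts for both. Of the 4 shown, the entry used starts 301 bases from the GENCODE start for PON2, 126 for AZGP1, 12 for NPTX2 and 5 for AKAP9. Capitals mark a match.

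AKAP9, chr7:91940612-91940911, plus strand: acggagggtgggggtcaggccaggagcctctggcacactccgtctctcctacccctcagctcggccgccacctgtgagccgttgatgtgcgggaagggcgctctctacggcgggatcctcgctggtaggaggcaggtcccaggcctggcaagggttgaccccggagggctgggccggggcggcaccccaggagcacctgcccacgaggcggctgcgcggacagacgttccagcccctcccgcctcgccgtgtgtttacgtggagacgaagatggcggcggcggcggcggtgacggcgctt
PON2, chr7:95434979-95435278, minus strand: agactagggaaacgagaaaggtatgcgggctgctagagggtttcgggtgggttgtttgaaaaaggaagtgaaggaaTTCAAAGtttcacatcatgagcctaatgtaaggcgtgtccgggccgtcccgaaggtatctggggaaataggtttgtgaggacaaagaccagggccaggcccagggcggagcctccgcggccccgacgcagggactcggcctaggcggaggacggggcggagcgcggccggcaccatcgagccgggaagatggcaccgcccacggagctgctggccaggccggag
NPTX2, chr7:98617035-98617334, plus strand: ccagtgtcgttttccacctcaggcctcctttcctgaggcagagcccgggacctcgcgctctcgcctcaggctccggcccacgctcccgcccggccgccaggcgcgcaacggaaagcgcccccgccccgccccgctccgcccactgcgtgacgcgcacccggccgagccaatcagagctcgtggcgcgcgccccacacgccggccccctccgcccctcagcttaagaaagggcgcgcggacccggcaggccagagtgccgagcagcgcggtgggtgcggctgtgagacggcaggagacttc
AZGP1, chr7:99975982-99976281, minus strand: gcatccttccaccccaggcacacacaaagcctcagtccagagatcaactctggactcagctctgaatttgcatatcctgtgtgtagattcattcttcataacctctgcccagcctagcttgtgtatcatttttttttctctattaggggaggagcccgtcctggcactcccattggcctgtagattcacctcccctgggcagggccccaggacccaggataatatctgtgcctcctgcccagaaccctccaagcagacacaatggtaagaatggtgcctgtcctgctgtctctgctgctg

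Only PON2 among the 4 holds a match, CTTTGAA on the opposite strand, which reads TTCAAAG in the line above. Over the 36 members matched, CTTTGAA was found in 3 (ANKIB1, PON2 and ZKSCAN5), or 8.33%, and in 4.43% of all 35116 promoters. CTTTGAT was found in 0 members and in 2.62% of all promoters. The 4 promoters differ most in their CpG dinucleotides: AZGP1 has 1, PON2 24, AKAP9 30 and NPTX2 39, beside a median of 14 over all promoters and 24.5 over the members. AZGP1 and CYP3A5, with 2, were the members with the fewest.

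Around the level that set membership, the lowest members were CFAP69 (5.07 TPM) and ZKSCAN5 (5.37 TPM), and the highest genes left out were the pseudogene CCZ1P1 (4.99 TPM) and STEAP2 (4.90 TPM), a neighbour and relative of STEAP1. CCZ1P1 and STEAP2 differed from SW620 Mock by -0.57 and -0.94 with dnLEF1, and CFAP69 and ZKSCAN5 by -0.20 and -0.40.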

How the data were processed

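Smart-seq2 RNA libraries of 18 xenograft samples in 6 groups of 3 were used; 3 PBS samples and the mouse table were not used here. The authors deposited TPM per human gene, summing to 1000000 per library, with no read depth. Per the submitters' processing notes, Trimmomatic 0.35, Bowtie 1.2, RSEM 1.2.31, hg38 and mm10 were used, with no role stated; the human annotation release is not given in the sources used here. Mouse reads that match human transcripts could enter the human values.

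Of 58381 identifiers, 45 second copies of pseudoautosomal genes (all 0) were left out and 58216 were found in GENCODE release 29, whose GRCh38 positions define the window. A gene entered the test where 3 or more libraries had 1 TPM or more (22981 genes, all 48 members included), and these were tested with limma 3.58.1 (R 4.3.3, intensity trend) on log2(TPM + 1), all 6 groups in the fit, with Benjamini-Hochberg adjustment in each of 7 comparisons and a threshold of 0.05. A fold on this scale understates changes of low genes. Errors after ± are SE for differences and SD for levels. The test was checked on simulated data. Every member may be named; library values are given for called members, for the 3 each way with the smallest p where none was called, for the most abundant members and for list members, with some kept to ranges. Values of 1 member are not reported here by name; it stays in all counts and medians and is not drawn in the plots by gene. The members and lists were chosen with earlier results of these data known. The alternatives were each library left out, the replicate number as a block, a fit of only the compared groups, scaling by median ratios, every gene kept whatever its level, a pseudocount of 0.1, other window edges and other level minimums. The counts of members with Mock highest or without overlap were tried under settings chosen after seeing the data. Python 3.11.15, numpy 2.4.6, pandas 2.3.3 and matplotlib 3.10.9 were used.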

Additional observations from a re-analysis of the deposited data

Results flagged for a closer look

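The dnLEF1 change differed between SW620 and SW480 by the test of that difference for AZGP1 (-2.64) and AKAP9 (-1.34). For both, dnLEF1 libraries lay above Mock at the mean in SW480 and below it in SW620. The AKAP9 value rests on libraries whose removal ends the call, as described above, while AZGP1 passed under each of 17 alternatives. SW620 Mock, in which AZGP1 and AKAP9 exceeded the 9 other SW620 libraries, enters both values.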

How the results depend on the processing

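The median change of the members in SW480 dnLEF1, 0.07, was -0.03 under median-ratio scaling, a move within its replicate spread, and no other median and no call of a named member changed sign. Among recomputed counts and medians, 307 stayed within the tolerance and 72 moved, and among recomputed calls of named members 252 were kept and 57 lost. TPM hold no depth, so what depth limits is unknown.

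With only the compared groups in the fit, called genes numbered 29 for SW480 dnLEF1 (512 before), 120 for SW620 dnLEF1 (38), 8 for Cas9 against Mock (0), 6 for LRP6KO against Mock (1), 10 for LRP6KO against Cas9 (0) and 43 for the line difference in dnLEF1 change (165). Members called were then 1 higher in SW480 dnLEF1, 4 lower in SW620 dnLEF1, 1 lower in Cas9 and 1 lower for the difference. The filter was applied anew in these fits, and shares of genes called are not given. A pseudocount of 0.1 gave 333 genes and 1 member for SW480 dnLEF1, 21 genes for SW620 dnLEF1 and 0 for LRP6KO against Mock. Without the filter on low values, Cas9 against Mock had 1 gene, LRP6KO against Mock 2, and the difference 1 member. Median-ratio scaling gave 108 genes for the difference and member medians of -0.27 for SW620 dnLEF1 and -0.22 for the difference, and 14 dnLEF1 members without overlap (chosen after seeing the data). It moved the share of higher calls from 311 of 512 to 190 of 415 in SW480 dnLEF1, from 13 of 38 to 21 of 38 in SW620 dnLEF1 and from 41 of 165 to 54 of 108 for the difference. The cause was not tested.

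Leaving out 1 library at a time gave 272 to 1223 genes for SW480 dnLEF1, 17 to 26 for SW620 dnLEF1, 0 to 1 for Cas9 against Mock and 66 to 781 for the difference. The highest counts for SW480 dnLEF1 and the difference came without SW480 dnLEF1 replicate 1, and members called for the difference ranged from 1 to 9, with 9 there too. Those 9 stand beside 781 of all 22981 tested genes, which include genes under the members' level. No share of like level is given, so these member counts are not read as a result about the members. The member medians ran from -0.61 to -0.43 for the difference and from -0.56 to -0.35 between Mock lines, the latter end without SW480 Mock replicate 2.

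Group medians of the window were 3.58 (SW480 Mock), 3.58 (SW480 dnLEF1), 3.42 (SW620 Mock), 3.05 (SW620 dnLEF1), 3.10 (Cas9) and 3.21 (LRP6KO) with a minimum of 1 TPM, and 4.89, 5.11, 4.64, 4.25, 4.30 and 4.32 in that order with a minimum of 10 TPM. With both edges moved 2 Mb towards lower coordinates they were 4.36 (SW480 dnLEF1), 4.45 (SW620 Mock), 4.09 (SW620 dnLEF1), 4.22 (Cas9) and 4.19 (LRP6KO), and with both edges moved 2 Mb the other way 4.85 (SW480 Mock) and 5.14 (SW480 dnLEF1). SW620 Mock was the highest SW620 group in each of these 4 settings.

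The replicate numbers did not pair the samples: residuals of same-numbered libraries had a mean correlation of -0.015 over 45 pairs. With the replicate number as a block, 417 genes were called for SW480 dnLEF1, 32 for SW620 dnLEF1, 5196 between Mock lines and 144 for the difference; PON2 in SW480 and BET1 between lines were lost.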
